A study of Mus musculus with 10 samples.

Results

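The adipocyte lipid storage program is a set of 34 mouse genes that make, coat, fill and empty the fat droplet of an adipocyte. The members were taken by gene symbol from the 36009 genes of the count table, and all 34 were found. They were divided by what is known of each gene into 14 adipocyte-restricted and 20 widely expressed genes. The RNA of the first is found in fat and in few other tissues, such as liver for Pck1 and muscle for Car3. The second are lipid genes that tumor cells, macrophages or vessels also use. The tumors were grown under the skin of female BALB/c mice from CT26, a colorectal carcinoma cell line of that strain, and the genotype is labelled WT. Most of the bulk of each of 10 tumors was resected and kept for polyA RNA sequencing before any treatment. A hydrogel loaded with poly(I:C), a synthetic double-stranded RNA, was then laid on the tumor left behind. The 6 responders regressed completely and the 4 non-responders grew without delay, so every value below was measured before the agent that defines the groups was given. The labels give no age, and the study's methods give a single age range in weeks for all its mice, with no age for a single tumor.

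An adipocyte stores energy as triglyceride in 1 large droplet. Lipoprotein lipase and the transporter CD36 bring in fatty acids, others are made from glucose, both are joined to a glycerol backbone and the product is sealed under a coat of perilipins. Adrenergic signals open that coat and let lipases release the fatty acids, and the mature cell also secretes hormones such as adiponectin and leptin. PPAR-gamma and C/EBP-alpha are the transcription factors that hold this state. A subcutaneous tumor grows against the fat layer of the skin, the thin muscle under it and, in females, the mammary fat pad.

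Libraries held 23374649 to 38042544 estimated counts, 29065126 to 38042544 in responders and 23374649 to 32986456 in non-responders. CPM values are counts scaled to a fixed library total after TMM normalization. A count of 0 would allow up to 3 counts, or 0.0783 to 0.130 CPM depending on the tumor, counting error only. Groups were compared by the edgeR quasi-likelihood test over the 16041 genes that passed a filter on low counts, and a gene is called higher or lower at a Benjamini-Hochberg adjusted p under 0.05. Nothing in the labels says more about how the tumors relate, so p-values measure the spread between these tumors. In a piece of bulk tissue, fewer cells of a type and less RNA per cell cannot be told apart. The label of a colorectal carcinoma was checked against epithelial genes. Krt18 and Vil1 were at no more than 3 and 4 counts in any tumor and Epcam at 0.121 to 0.709 CPM. The intestinal keratin Krt20 was at 12.7 to 37.7 CPM in responders and 32.5 to 75.3 CPM in non-responders, and Cdh1 at 2.63 to 6.52 and 4.99 to 7.03 CPM. Cdx2 was at 0.364 to 0.858 CPM in responders and 0.694 to 1.61 CPM in non-responders, and Krt8 at 0 to 0.264 and 0.0867 to 0.565 CPM. What part tumor cells had in the values of the members was not tested.

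In these tumors most fat cell genes were scarce and uneven, while Car3 was at 17.2 to 74.8 CPM and varied least of them within each group. All 10 adipocyte-restricted members that could be tested had a higher estimate in responders. Several of the 10 would not have passed the low-count filter without the responders, so that shared direction is a description only. The labels do not say what surrounding tissue was resected with a tumor. Fat or muscle taken along and a difference within the tumor itself therefore cannot be told apart. Of the 10, 3 passed the test on their own, namely Car3, Adrb3 and Pck1. Of 19 widely expressed members tested, 5 were called higher, namely Lpl, Pparg, Acsl1, Pnpla2 and Mgll, and 2 lower, namely Elovl6 and Fasn, which lengthen and make fatty acids. The members called came to 8 higher and 2 lower of 29 tested, where 8.06% of all genes tested were called, 4.71% higher and 3.35% lower. These counts depended on single tumors, and so did those over all genes, where 0 to 1148 were called higher with 1 tumor left out. No member was called higher without responder 3, non-responder 1 or non-responder 4, although 20 or 21 had an unadjusted p under 0.05, while 16 were called higher without non-responder 2 and 15 without responder 4. Without responders 2, 5 or 6 or non-responder 3 the count was 2, 4, 5 and 4. In the fits without responder 3, non-responder 1 or non-responder 4, none of the other pathway genes and cell markers read below was called higher either.

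**Figure D1:**
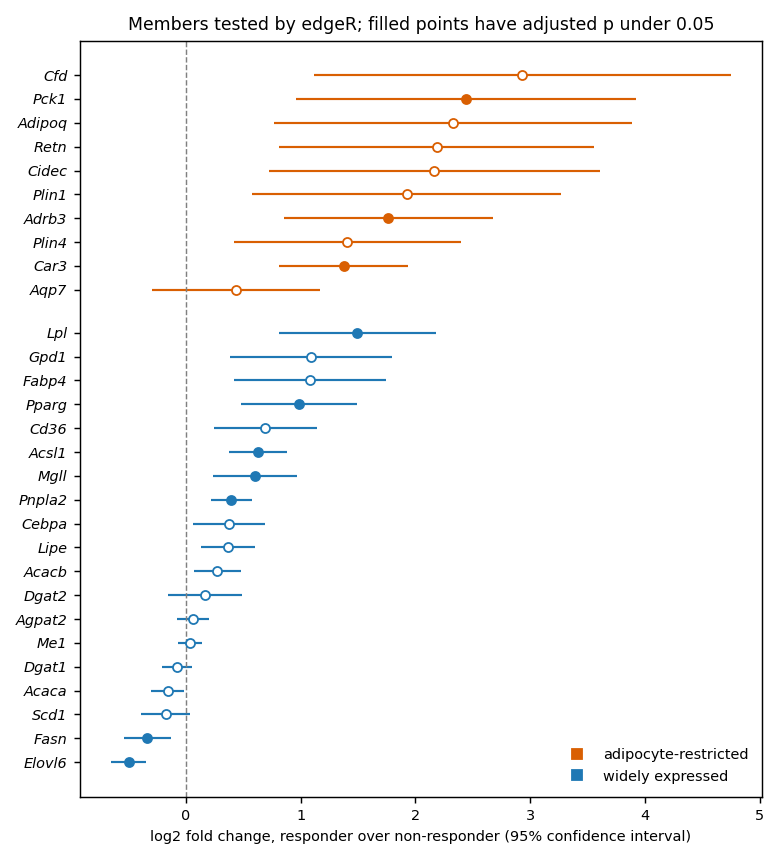
The log2 fold change of each tested member, responders over non-responders, is drawn on the x axis with its 95% confidence interval, in orange for the 10 adipocyte-restricted and in blue for the 19 widely expressed members; filled points passed an adjusted p of 0.05. All adipocyte-restricted points lie right of 0 with wide intervals, and the widely expressed points run from -0.50 for Elovl6 to 1.50 for Lpl.

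Promoter sequences are shown for the gene that defines the mature fat cell and for members of both directions. RefSeq promoters on GRCm38.p6, 250 bases before to 50 bases after a transcription start, were at hand for 25 of the 34 members, and the 250 bases before the start are printed 5′ to 3′. They are chr16:23146286-23146535 for Adipoq, which encodes adiponectin, chr7:141454938-141455187 for Pnpla2, which encodes the triglyceride lipase ATGL, and chr3:129532136-129532385 for Elovl6, all on the plus strand. The fourth, at chr6:29059971-29060220 on the plus strand, belongs to Lep, which encodes leptin. Capitals mark matches, on either strand, to 1 of 5 motifs searched.
Adipoq: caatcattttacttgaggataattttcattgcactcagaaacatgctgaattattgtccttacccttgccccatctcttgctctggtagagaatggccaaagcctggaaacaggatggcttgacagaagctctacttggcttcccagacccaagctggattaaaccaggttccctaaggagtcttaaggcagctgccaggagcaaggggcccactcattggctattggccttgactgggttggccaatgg
Pnpla2: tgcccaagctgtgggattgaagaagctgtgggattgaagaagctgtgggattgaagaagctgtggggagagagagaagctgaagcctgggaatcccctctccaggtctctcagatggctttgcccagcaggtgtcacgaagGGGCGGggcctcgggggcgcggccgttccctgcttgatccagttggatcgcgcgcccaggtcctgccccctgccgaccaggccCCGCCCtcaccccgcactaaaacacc
Elovl6: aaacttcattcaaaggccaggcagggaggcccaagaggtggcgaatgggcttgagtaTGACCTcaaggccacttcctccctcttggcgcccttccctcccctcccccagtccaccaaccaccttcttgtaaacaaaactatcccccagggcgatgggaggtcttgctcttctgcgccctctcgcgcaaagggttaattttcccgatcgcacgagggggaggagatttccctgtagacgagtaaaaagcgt
Lep: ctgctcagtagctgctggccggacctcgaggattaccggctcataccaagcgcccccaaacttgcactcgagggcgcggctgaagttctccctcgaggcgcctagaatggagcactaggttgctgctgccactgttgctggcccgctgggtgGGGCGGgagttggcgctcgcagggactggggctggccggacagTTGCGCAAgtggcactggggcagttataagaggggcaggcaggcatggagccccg
The motifs were AGGTCA, the half-site of nuclear receptors, that half-site repeated after 1 base (AGGTCANAGGTCA, named DR1, each match of which also holds AGGTCA), the C/EBP palindrome TTGCGCAA, the TATA box TATAAA and the GC box GGGCGG. Adipoq held none of these letters in its window. Pnpla2 held GC boxes 109 and 26 bases before the start, Elovl6 an AGGTCA on the minus strand 193 bases before it, and Lep a C/EBP palindrome 55 and a GC box 98 bases before it. Lep was the 1 member with that palindrome, which 0.183% of all 32851 promoters held. AGGTCA was found in 3 of 13 promoters of adipocyte-restricted members (Aqp7 and Ucp1) and 7 of 21 of widely expressed members, against 16.3% of all promoters. The 2 Aqp7 promoters overlap, and 1 AGGTCA lies in both. GC boxes were found in 2 of 13 and 12 of 21, against 35.7%, and TATAAA in 0 of 13 and 3 of 21 (Acacb, Cebpa and Pparg), against 13.6%. No member promoter held DR1, which 13 of the 32851 held. These are matches of letters and say nothing of binding.

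Among the secreted products of the fat cell, Adipoq (ENSMUSG00000022878, chromosome 16, 23146536 to 23158028) was at 0.0807, 1.61, 0.0867 and 0.875 CPM in non-responders 1 to 4, where non-responders 1 and 3 had 2 counts each, fewer than the 3 that a count of 0 would allow. The responders ran from 0.566 to 4.90 CPM (median 4.07). Responder 1, at 0.566 CPM, lay below non-responders 2 and 4, and the other 5 responders lay above every non-responder. The difference did not pass the threshold (edgeR log2 fold change 2.33 with an SE of 0.71, adjusted p = 0.0634).

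Cfd (ENSMUSG00000061780, chromosome 10, 79890853 to 79892655), which encodes the complement protease adipsin, was at 0.161, 6.23, 0.173 and 2.08 CPM in non-responders 1 to 4 and at 2.73 to 26.8 CPM (median 18.8) in responders. Responder 1, at 2.73 CPM, was again the exception, below non-responder 2 and above the other non-responders. Its estimate was the largest of the program and missed the threshold (edgeR log2 fold change 2.93 with an SE of 0.83, adjusted p = 0.0517). Retn (ENSMUSG00000012705, chromosome 8, 3655770 to 3660110), which encodes resistin, was at 0.0807, 0.523, 0.260 and 0.211 CPM in the non-responders and at 0.133 to 1.89 CPM (median 1.28) in responders. Responder 1 lay below non-responders 2, 3 and 4, and 5 of 6 responders lay above them all (edgeR log2 fold change 2.19 with an SE of 0.63, adjusted p = 0.0539).

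Lep was too low to test, with 0, 9, 0 and 6 counts in non-responders 1 to 4 and 1, 25, 9, 8, 5 and 31 in responders 1 to 6. The groups overlap, and responder 1 again was the lowest of its group.

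The droplet coat was read from the perilipins and CIDE proteins. Plin1 (ENSMUSG00000030546, chromosome 7, 79720218 to 79732903), the perilipin of mature fat cells that guards the droplet from lipases, was at 0.202, 2.05, 0.347 and 1.06 CPM in non-responders 1 to 4 and 0.932 to 5.48 CPM (median 3.71) in responders. Responders 1 and 4, at 0.932 and 1.98 CPM, lay below non-responder 2, and the estimate did not pass (edgeR log2 fold change 1.93 with an SE of 0.61, adjusted p = 0.0701). Plin4 (ENSMUSG00000002831, chromosome 17, 56100591 to 56109803), a perilipin of nascent droplets also found in muscle, was at 3.31, 10.3, 2.95 and 4.58 CPM in the non-responders and 6.06 to 20.0 CPM (median 16.1) in responders. The same pair of responders lay below non-responder 2 (edgeR log2 fold change 1.41 with an SE of 0.45, adjusted p = 0.0716).

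Cidec (ENSMUSG00000030278, chromosome 6, 113424634 to 113435760), which fuses droplets into 1 large one, was at 0.283, 1.68, 0.173 and 0.845 CPM in non-responders 1 to 4 and 0.999 to 5.51 CPM (median 3.55) in responders. Once more responders 1 and 4 lay below non-responder 2 (edgeR log2 fold change 2.17 with an SE of 0.66, adjusted p = 0.0628). Its relative Cidea, which serves droplets of brown fat, was too low to test, with no more than 5 counts in any tumor. The perilipin of oxidative tissue, Plin5, belongs to the widely expressed class and was not tested either, with 2 to 9 counts per tumor.

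Car3 and Adrb3 were the adipocyte-restricted members whose groups did not overlap. Car3 (ENSMUSG00000027559, chromosome 3, 14863512 to 14872523), a carbonic anhydrase abundant in fat and in slow muscle, was at 17.2, 31.5, 22.0 and 19.9 CPM in non-responders 1 to 4 and 32.4 to 74.8 CPM (median 64.9) in responders. The lowest responder, number 1, lay just above the highest non-responder, number 2. Car3 was called higher in responders (edgeR log2 fold change 1.37 with an SE of 0.26, adjusted p = 0.0243), a fold of 2.59 with a 95% interval of 1.75 to 3.83. The call was lost without responder 3 or non-responders 1 or 4, at an edgeR adjusted p of 0.0592 to 0.0707.

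Adrb3 (ENSMUSG00000031489, chromosome 8, 27225776 to 27250616), the adrenergic receptor through which catecholamines start lipolysis in rodent fat, was at 0.283, 0.709, 0.564 and 0.543 CPM in the non-responders and 0.732 to 2.94 CPM (median 1.92) in responders. Responder 1, at 0.732 CPM, and non-responder 2, at 0.709 CPM, nearly touched. Adrb3 was called higher (edgeR log2 fold change 1.77 with an SE of 0.41, adjusted p = 0.0349). The call was lost without responders 2, 3, 5 or 6 or non-responders 1, 3 or 4, at an edgeR adjusted p of 0.0511 to 0.0888. Its exons share 839 bases with Gm45470 on the opposite strand, and the strand setting of the counting is not given in the sources used here, so reads of the pair cannot be told apart.

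Pck1 (ENSMUSG00000027513, chromosome 2, 173153048 to 173159273), the cytosolic phosphoenolpyruvate carboxykinase that makes glycerol for storage in fat and glucose in liver, was at 0.0404, 0.597, 0.303 and 0.452 CPM in the non-responders and 0.594 to 4.49 CPM (median 1.60) in responders. Non-responder 1 had a single count, and the lowest responder, number 4, lay narrowly under non-responder 2. It was called higher (edgeR log2 fold change 2.44 with an SE of 0.68, adjusted p = 0.0492). The call was lost without responders 1, 2, 3, 5 or 6 or non-responders 1, 3 or 4, at an edgeR adjusted p of 0.0544 to 0.115. Aqp7 (ENSMUSG00000028427, chromosome 4, 41033074 to 41048139), the channel that lets glycerol out of the fat cell, was at 0.807, 0.597, 0.390 and 0.392 CPM in the non-responders and 0.433 to 1.15 CPM (median 0.695) in responders. The groups overlap and no difference was detectable (edgeR log2 fold change 0.44 with an SE of 0.33, adjusted p = 0.411, 95% interval -0.30 to 1.17).

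The low-count filter kept out 4 adipocyte-restricted members, Cidea, Lep, Thrsp and Ucp1. Thrsp, which encodes a lipogenic regulator, had 1 to 17 counts in responders and 5 to 9 in non-responders. Ucp1, the uncoupling protein of brown fat, had 0 counts in all 4 non-responders and 0 to 3 in responders. A gene that passes the filter only through the group where it is high must differ, so the 10 tested are not read as all 14. In non-responder 1, Adipoq, Plin1, Cfd, Retn, Cidec, Pck1 and Adrb3 had 1 to 7 counts, under the filter's minimum count of 10. These genes would not have passed without the responders, and their shared direction is not read as support for a difference.

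**Figure D2:**
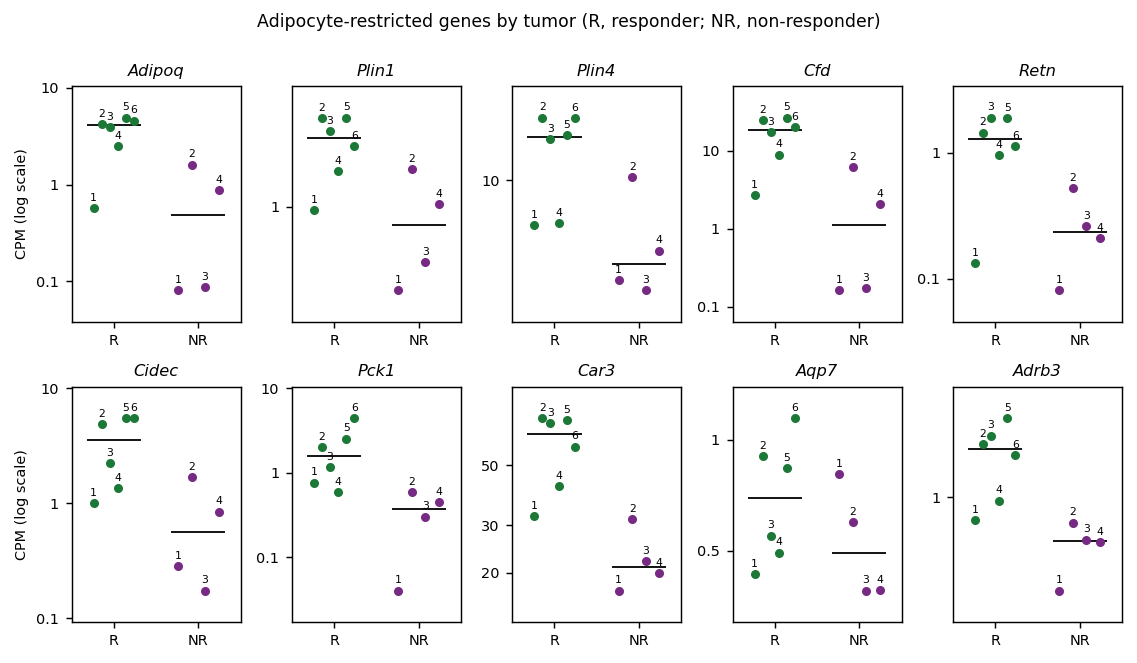
Each panel gives 1 adipocyte-restricted member that passed the low-count filter, with CPM on a log y axis, 1 point per tumor numbered within its group, green for responders (R, n = 6) and purple for non-responders (NR, n = 4), and a line at the group median. Responders 1 and 4 sit at the bottom of the responders in all 10 panels and non-responder 2 at the top of the non-responders in 9.

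These genes kept a common order over the tumors. Responder 1 was the lowest responder for 9 of the 10 genes and responder 4 for Pck1, and this pair gave the 2 lowest responder values for all 10. Non-responder 2 was the highest of its group for 9, with Aqp7 the exception, and non-responders 1 and 3 were the lowest of all tumors for 7 and 3. The ratio of the highest to the lowest responder had a median of 5.70 over the 10 genes, and that of non-responders 8.08, against 1.40 and 1.38 over the 19 widely expressed genes. The order is shared by genes of the same libraries, so it is 1 pattern and not 10.

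The summed level of the 14 adipocyte-restricted members was 46.1, 142, 121, 66.1, 141 and 122 CPM in responders 1 to 6 and 22.7, 56.4, 27.5 and 31.4 CPM in non-responders 1 to 4. Responder 1 lay below non-responder 2, and the other 5 responders lay above all non-responders. The mean was 106 ± 40.5 CPM over the 6 responders against 34.5 ± 15.05 CPM over the 4 non-responders (mean ± SD), a ratio of 3.08. Car3 alone made up 48.0% to 80.0% of the sum in a tumor. Without Car3, Pck1, Plin4 and Aqp7, which muscle also uses, the sum was 6.46, 44.3, 32.5, 17.0, 48.0 and 37.8 CPM in responders 1 to 6 and 1.37, 13.4, 1.86 and 6.09 CPM in non-responders 1 to 4. Responder 1 then lay below non-responder 2 and close to non-responder 4, and the ratio of the means was 5.47. Of this smaller sum, Cfd alone made up 16.9 of a mean of 31.0 CPM in responders and 2.16 of 5.67 CPM in non-responders. The 20 widely expressed members together were level, at 1010.4 ± 23.2 CPM over the 6 responders against 1019 ± 51.8 CPM over the 4 non-responders (mean ± SD).

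**Figure D3:**
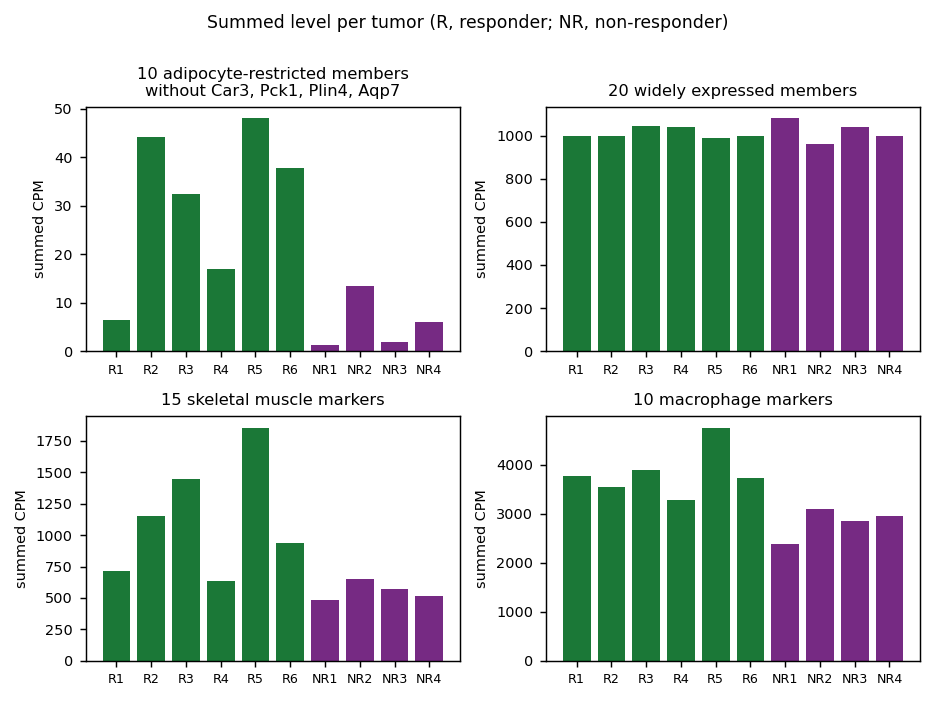
Bars from 0 give the summed CPM per tumor, green for responders 1 to 6 and purple for non-responders 1 to 4, of 10 adipocyte-restricted members without Car3, Pck1, Plin4 and Aqp7, of the 20 widely expressed members, of 15 skeletal muscle markers and of 10 macrophage markers. The first panel runs from 1.37 to 48.0 CPM, the second stays between 959.8 and 1079.6 CPM, and in the 2 lower panels responder 5 has the highest bar.

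Of the widely expressed members of fatty acid uptake and activation, Lpl and Acsl1 were called higher and Cd36 and Fabp4 were not called. Lpl (ENSMUSG00000015568, chromosome 8, 68880491 to 68907448), the lipase that frees fatty acids from lipoproteins and is also made by macrophages and muscle, was at 11.5, 25.5, 37.3 and 14.0 CPM in non-responders 1 to 4 and 47.4 to 89.2 CPM (median 59.8) in responders. Every responder lay above every non-responder, also responder 1, at 55.4 CPM, where Adipoq was at 0.566 CPM. Lpl was called higher (edgeR log2 fold change 1.50 with an SE of 0.31, adjusted p = 0.0285), a fold of 2.82 with a 95% interval of 1.76 to 4.53. This call was lost without responders 2 or 3 or non-responders 1 or 4, at an edgeR adjusted p of 0.0547 to 0.0782. Over all genes tested, 5.84% had every responder above every non-responder, which 2 of the 10 adipocyte-restricted and 4 of the 19 widely expressed members tested did.

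Acsl1 (ENSMUSG00000018796, chromosome 8, 46471037 to 46536051), which activates fatty acids with coenzyme A, was at 20.3, 21.9, 22.1 and 18.6 CPM in the non-responders and 27.3 to 41.7 CPM (median 30.7) in responders. The groups stood apart and the non-responders hardly varied, and Acsl1 was called higher (edgeR log2 fold change 0.63 with an SE of 0.11, adjusted p = 0.0232). That was lost without responder 3 or non-responders 1 or 4, at an edgeR adjusted p of 0.0584 to 0.068. The exons of Acsl1 share 1039 bases with Gm45244 on the opposite strand, whose reads cannot be told apart from its own here. The scavenger receptor and fatty acid transporter Cd36 (ENSMUSG00000002944) was at 7.35, 8.81, 6.63 and 10.1 CPM in the non-responders and 9.55 to 20.2 CPM (median 13.0) in responders. Responders 1 and 4 lay below non-responder 4 and the estimate did not pass (edgeR log2 fold change 0.69 with an SE of 0.21, adjusted p = 0.059). Fabp4 (ENSMUSG00000062515), the fatty acid carrier of fat cells, macrophages and capillary endothelium, was at 8.80, 13.5, 7.93 and 14.99 CPM in the non-responders and 13.1 to 36.1 CPM (median 24.5) in responders. Responder 1 lay below non-responders 2 and 4 and responder 4 below non-responder 4, and the estimate stood at the threshold (edgeR log2 fold change 1.08 with an SE of 0.30, adjusted p = 0.0503).

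Of the transcription factors, Pparg (ENSMUSG00000000440, chromosome 6, 115360951 to 115490399), the nuclear receptor that drives fat cell formation and also serves macrophages, was at 1.66, 2.46, 3.30 and 1.99 CPM in the non-responders and 3.30 to 6.74 CPM (median 4.43) in responders. The lowest responder, number 4, lay just above non-responder 3, so the groups met without overlap. Pparg was called higher (edgeR log2 fold change 0.99 with an SE of 0.23, adjusted p = 0.0341). Its call was lost without responders 1, 2, 3 or 5 or non-responders 1 or 4, at an edgeR adjusted p of 0.0525 to 0.0924. Cebpa (ENSMUSG00000034957), its partner, was at 29.6, 58.1, 47.2 and 46.8 CPM in the non-responders and 52.9 to 65.4 CPM (median 58.5) in responders. The groups overlap and it was not called (edgeR log2 fold change 0.38 with an SE of 0.14, adjusted p = 0.113). Responder 1, the lowest responder for Adipoq, had 62.6 CPM of Cebpa and 4.89 CPM of Pparg.

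The lipases act in series on stored triglyceride. Pnpla2 (ENSMUSG00000025509, chromosome 7, 141455198 to 141460743), which takes off the first fatty acid and whose promoter is printed above, was at 43.0, 50.1, 40.3 and 53.3 CPM in the non-responders and 55.6 to 66.9 CPM (median 61.5) in responders. All responders lay above all non-responders, by a small margin, and it was called higher (edgeR log2 fold change 0.40 with an SE of 0.08, adjusted p = 0.0274). That was lost without responders 2 or 3 or non-responders 1, 3 or 4, at an edgeR adjusted p of 0.0527 to 0.0707. Lipe (ENSMUSG00000003123), the hormone-sensitive lipase that takes the next, was at 16.4, 19.6, 18.2 and 17.1 CPM in the non-responders and 18.6 to 26.5 CPM (median 23.9) in responders. Responders 1 and 4, at 18.6 and 19.3 CPM, lay below non-responder 2. Lipe was not called (edgeR log2 fold change 0.37 with an SE of 0.11, adjusted p = 0.0568), and its exons share 918 bases with 4732471J01Rik on the opposite strand. Mgll (ENSMUSG00000033174, chromosome 6, 88724412 to 88828360), which takes the last, was at 4.68, 4.33, 3.95 and 5.58 CPM in the non-responders and 5.28 to 9.29 CPM (median 7.16) in responders. Non-responder 4 lay above responder 4, so the groups overlap, and the call rested on a p close to the threshold (edgeR log2 fold change 0.60 with an SE of 0.17, adjusted p = 0.0488). The call was lost without responders 1, 2, 3, 5 or 6 or non-responders 1, 2, 3 or 4, at an edgeR adjusted p of 0.0694 to 0.111.

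Fatty acid synthesis went the other way for a pair of genes. Elovl6 (ENSMUSG00000041220, chromosome 3, 129532355 to 129638495), which lengthens palmitate to stearate, was at 42.7, 40.8, 36.7 and 41.1 CPM in non-responders 1 to 4 and 26.0 to 31.2 CPM (median 28.3) in responders. The groups stood far apart relative to their spread, and Elovl6 was called lower (edgeR log2 fold change -0.50 with an SE of 0.07, adjusted p = 0.0156), the smallest adjusted p of the program. The call was lost without non-responders 1 or 4, at an edgeR adjusted p of 0.0529 to 0.0583. Fasn (ENSMUSG00000025153, chromosome 11, 120805846 to 120824547), the fatty acid synthase itself, was at 385, 278, 329 and 311 CPM in the non-responders and 221 to 291 CPM (median 262) in responders. Responder 4 lay above non-responder 2, so the groups overlap, and Fasn was called lower (edgeR log2 fold change -0.33 with an SE of 0.09, adjusted p = 0.048). Its call was lost without responders 1, 2, 3, 5 or 6 or non-responders 1, 3 or 4, at an edgeR adjusted p of 0.0683 to 0.126. Scd1 (ENSMUSG00000037071), which makes the product monounsaturated, was at 284, 222, 263 and 249 CPM in the non-responders and 187 to 262 CPM (median 225) in responders. It overlaps between groups and was not called (edgeR log2 fold change -0.18 with an SE of 0.10, adjusted p = 0.245). The acetyl-CoA carboxylases Acaca and Acacb, which make malonyl-CoA for synthesis and at mitochondria, had estimates of -0.16 on the log2 scale (SE 0.07, adjusted p by edgeR = 0.139) and 0.27 (SE 0.09, adjusted p by edgeR = 0.0824), neither called.

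**Figure D4:**
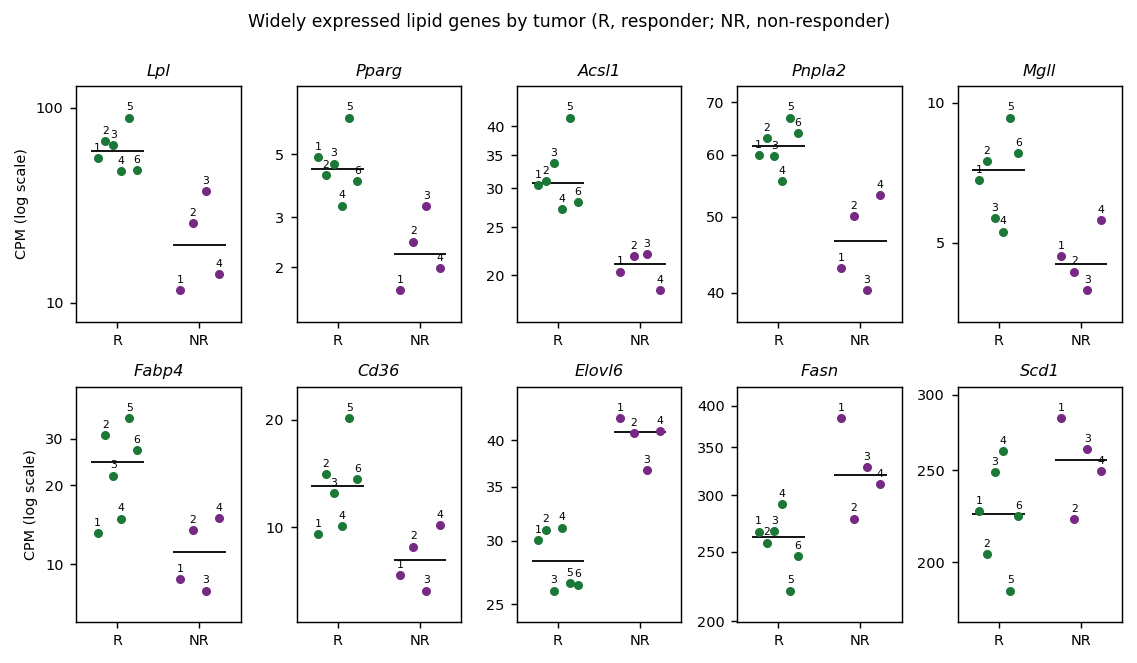
Each panel gives 1 of 10 widely expressed members, with CPM on a log y axis, 1 numbered point per tumor, green for responders (R, n = 6), purple for non-responders (NR, n = 4), and a line at the group median. Lpl, Pparg, Acsl1 and Pnpla2 stand apart upward and Elovl6 downward, while the groups of the other 5 panels overlap.

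Apart from Pck1, described above, no member of glycerol supply and esterification was called. Gpd1, which makes glycerol 3-phosphate, had an edgeR estimate of 1.09 on the log2 scale (SE 0.32, adjusted p = 0.0588) and was the largest estimate of these, and its exons share 384 bases with Gm16537 on the opposite strand. Estimates for the NADPH-making malic enzyme Me1, the acyltransferase Agpat2 and the last enzymes of triglyceride assembly, Dgat1 and Dgat2, were not called, and their intervals bound the log2 fold change. By edgeR the adjusted p was 0.638, 0.538, 0.422 and 0.48. The 95% interval ran from -0.07 to 0.14 for Me1, from -0.08 to 0.20 for Agpat2, from -0.21 to 0.05 for Dgat1 and from -0.16 to 0.49 for Dgat2. Me1 varied least of the tested members, with a ratio of highest to lowest tumor of 1.04 among responders and 1.14 among non-responders.

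The median log2 fold change was 2.05 over the 10 adipocyte-restricted members tested, 0.37 over the 19 widely expressed ones and -0.01 over all genes tested. Of the adipocyte-restricted members, 9 of 10 had an unadjusted p under 0.05, all but Aqp7, and the same 9 an adjusted p under 0.10. Of all genes tested, 29.1% had an unadjusted p under 0.05 and 18.7% an adjusted p under 0.10, in either direction. Among the 9 are members that would not have passed the low-count filter without the responders. Their number, the median of 2.05 and the lack of lower calls are therefore descriptions only. Thrsp, which the filter left out, had means of 0.251 CPM in responders and 0.250 CPM in non-responders. No adipocyte-restricted member was called lower by edgeR or DESeq2, and none had an unadjusted p under 0.05 in that direction. The number called higher was 9 without non-responder 2, 6 without responder 4 and 5 without responder 1, and fell to 0 to 1 without any other tumor. Over all genes tested it ranged from 0 to 1148 in these fits. The tumors did not keep 1 order over the widely expressed members. Responder 5 was the highest of all tumors for 8 of 19 and non-responder 1 for 6, and non-responder 1 was also the lowest of all for 7.

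Per kilobase of annotated exon, the levels of the members spanned several orders of magnitude. Over all 10 tumors the mean was 48.5 CPM per kb for Scd1, 26.1 for Fasn, 20.3 for Cebpa and 18.4 for Pnpla2. Car3, at 15.5 CPM per kb, and Cfd, at 11.9, were the highest adipocyte-restricted members, Adipoq was at 1.69 and Ucp1 at 0.0104.

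Other genes of the pathway were read from 7 lists of 106 genes, of which 105 were found and 96 tested. Of these 96, 4 were called higher (4.17%) and 8 lower (8.33%), against 4.71% and 3.35% of all genes tested. The share called higher was thus near that of all genes. Among 16 genes that supply and control fatty acid synthesis, Acly, which makes cytosolic acetyl-CoA, was called lower (edgeR log2 fold change -0.27 with an SE of 0.06, adjusted p = 0.0321), as Elovl6 and Fasn were. In the same list Nr1h3, the sterol receptor LXR-alpha of macrophages and liver, was called higher (edgeR log2 fold change 0.69 with an SE of 0.19, adjusted p = 0.047). Of 14 tested genes of glycerolipid assembly and droplet coat, the acyltransferase Gpat4 was called lower (edgeR log2 fold change -0.18 with an SE of 0.04, adjusted p = 0.0401).

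Among 15 genes of lipolysis and its adrenergic control, the adenylyl cyclase Adcy6 was called lower (edgeR log2 fold change -0.24 with an SE of 0.06, adjusted p = 0.036). Of 15 genes of fatty acid and glucose uptake, Slc2a4, the insulin-regulated glucose transporter GLUT4 of fat and muscle, was called higher (edgeR log2 fold change 1.30 with an SE of 0.30, adjusted p = 0.033). In that list 4 were lower, the insulin receptor substrate Irs1 (edgeR log2 fold change -0.41 with an SE of 0.09, adjusted p = 0.033), the lipoprotein receptor Vldlr (edgeR log2 fold change -0.69 with an SE of 0.15, adjusted p = 0.0299), the fatty acid activator Acsl3 (edgeR log2 fold change -0.29 with an SE of 0.07, adjusted p = 0.0334) and the fatty acid transporter Slc27a4 (edgeR log2 fold change -0.28 with an SE of 0.06, adjusted p = 0.0268). Of 10 tested genes of brown fat, the mitochondrial carrier Ucp2, which immune cells also express, was called higher (edgeR log2 fold change 0.36 with an SE of 0.07, adjusted p = 0.028). The potassium channel Kcnk3 was called lower (edgeR log2 fold change -0.81 with an SE of 0.19, adjusted p = 0.036).

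By edgeR none of 13 adipogenic transcription factors tested was called, with 7 at an unadjusted p under 0.05, where 29.1% of all genes tested were, and 3 called higher by DESeq2. The smallest p-values were those of Zfp467 (edgeR log2 fold change 0.52 with an SE of 0.17, adjusted p = 0.0699) and Klf4 (edgeR log2 fold change 0.41 with an SE of 0.13, adjusted p = 0.075). Of 13 adipokines and other secreted products tested, edgeR called none, with 4 at an unadjusted p under 0.05, a share near that of all genes, and 1 called higher by DESeq2. The smallest p-values there were those of Nampt (edgeR log2 fold change 0.44 with an SE of 0.14, adjusted p = 0.075) and Retsat (edgeR log2 fold change -0.21 with an SE of 0.07, adjusted p = 0.0848).

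Markers of other cells that a resected piece can hold were read in the same fit. All 15 skeletal muscle markers had a higher estimate in responders and 4 were called, namely Acta1, Myh1, Ckm and Myl1. Over all genes tested, 4.71% were called higher. By edgeR 14 of the 15 had an unadjusted p under 0.05, where 29.1% of all genes tested did, and DESeq2 called 11 higher. Their summed level was 638 to 1853 CPM in responders and 485 to 649.7 CPM in non-responders. None of the 15 was at 0. Responders 1 and 4 had the lowest muscle sums of the responders, as they had for the adipocyte-restricted members. Of 10 macrophage markers, 8 had a higher estimate in responders and 5 were called higher, namely Adgre1, Cd68, C1qa, C1qb and C1qc. By edgeR 7 of these 10 had an unadjusted p under 0.05, and DESeq2 called 6 higher. Mrc1 and Cd163 had lower estimates (edgeR log2 fold change -0.13 and -0.31), neither called. The macrophage sum was 3278 to 4748 CPM in responders and 2387 to 3085 CPM in non-responders, and macrophages are known to make Lpl, Pparg, Cd36 and Acsl1. What part muscle or macrophages had in the values of the members was not tested.

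Of 10 endothelial markers none was called by edgeR or DESeq2 and none had an unadjusted p under 0.05, with sums of 109 to 169.9 CPM in responders and 92.0 to 134 CPM in non-responders. Of 10 fibroblast and preadipocyte markers Pdgfrb was called lower (edgeR log2 fold change -0.58 with an SE of 0.12, adjusted p = 0.0266), with sums of 4585 to 5248 CPM in responders and 4009.9 to 6215 CPM in non-responders. Markers of skin and mammary gland were mostly too low to test. Of 12 keratinocyte markers 3 could be tested, with sums of 5.64 to 7.77 CPM in responders and 4.71 to 12.3 CPM in non-responders and Krt77 at 0 in every tumor. None was called by edgeR, with 1 at an unadjusted p under 0.05 and 1 called higher by DESeq2. Krt5 and Krt14 reached 83 and 58 counts in non-responder 2 and no more than 2 elsewhere. Dsg1a, Krt15 and Ivl reached 16, 8 and 6 counts among non-responders. Other markers of the list did not follow, with Krt1 and Lor at no more than 1 count. Krt10 was at 2.69 to 2.95 CPM in non-responders and 2.71 to 3.82 CPM in responders, and Sbsn at 1.24 to 2.06 and 1.62 to 2.28 CPM. Of 10 sebaceous gland markers 4 were tested, with sums of 212 to 231 CPM in responders and 197 to 229 CPM in non-responders and Awat1 and Acot5 at 0. Almost all of this sum was Soat1, with means of 211.8 CPM in responders and 208.3 CPM in non-responders, while Awat2 had means of 0.766 and 0.768 CPM. Of 10 mammary markers 2 were tested, with sums of 6.92 to 11.9 CPM in responders and 7.23 to 10.4 CPM in non-responders. Most of that sum was Cd24a, with means of 7.80 CPM in responders and 7.69 CPM in non-responders. No tested sebaceous or mammary marker was called by edgeR or DESeq2 or had an unadjusted p under 0.05. What part these cells had in the members' values was not tested.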

How the data were processed

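PolyA RNA of the resected parts of 10 tumors was sequenced as 150-base paired ends. Per the paper's methods and the submitters' notes, the authors checked reads with FastQC, estimated transcript abundance with kallisto and summed it to genes with tximport on mm10 (GRCm38). The values that the authors deposited are estimated counts, not scaled to depth, and 35% of them are fractional by more than 0.001. The annotation release, tximport scaling and strand setting are not given in the sources used here, and pseudoalignment makes counts of overlapping genes uncertain.

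Counts were rounded and fitted over the whole table in R 4.3.3 with edgeR 4.0.16 (filterByExpr with minimum count 10 and minimum total 15, TMM, glmQLFit, glmQLFTest, two-sided, no covariates), with Benjamini-Hochberg adjustment over 16041 genes. The labels give no batch. CPM values are on TMM-scaled totals of the deposited counts, and SE is the log2 fold change over the square root of F. The fit was tested on simulated data with 200 changed genes. Alternatives were DESeq2 1.42.0, RLE scaling, no filter on low counts, the study's filter (at least 0.366 CPM in 3 libraries), libraries thinned to the shallowest, unrounded counts, and each tumor left out.

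Coordinates are GENCODE M21 on GRCm38, and promoters are from RefSeq. Groups follow the labelled response. Numbers within a group follow accession order and pair nothing. The members, classes and lists were chosen with earlier results of these data known. All members are named. Tumor values are given for the adipocyte-restricted members tested, the widely expressed members called, and Fabp4, Lpl, Pparg, Cebpa, Lipe, Scd1, Fasn and Cd36. Of each pathway list the genes called are named, or else the 2 with the smallest p. The values of 1 pathway gene are not reported here. Genes named from the marker lists and epithelial genes were chosen after their values were seen. No list was tested as a set.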

Additional observations from a re-analysis of the deposited data

Results flagged for a closer look

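Of 60 groups of values examined (29 tested members and the summed level of the adipocyte-restricted members, in responders and in non-responders), 3 held a tumor far from the rest, where chance gives about 3. The gap from the extreme tumor to its nearest neighbor was taken as a share of the whole range of its group on the log2 CPM scale and set against Dixon's 95% critical value. Responder 1 was the lowest responder for Adipoq, at -0.66 log2 CPM against 1.35 in the next, a gap of 0.6753 of the range. Responder 1 was also the lowest for Retn, at -2.33 against 0.03 log2 CPM, a gap of 0.716. Non-responder 1 was the lowest non-responder for Dgat2, which completes triglyceride synthesis, at 1.87 against 2.54 log2 CPM, a gap of 0.8981.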

How the results depend on the processing

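No member changed direction under any alternative. DESeq2 gave the most calls among the alternatives that kept all tumors, with 19 members higher (9 adipocyte-restricted and 10 widely expressed), 17 pathway genes, 18 markers of other cells and 1543 of all genes higher and 1059 lower. Members called lower were 1, Elovl6, in place of 2 with RLE scaling, with no filter on low counts and with thinned libraries, and these were the widely expressed ones, since Fasn was lost. Thinning gave 7 pathway genes called higher, and of all genes 353 were called lower with thinning and 299 with no filter. Scaling moved no other count of members past 1.5 times. With 1 tumor left out, members called ranged over 0 to 16 higher and 0 to 2 lower, adipocyte-restricted ones over 0 to 9 higher, and widely expressed ones over 0 to 9 higher and 0 to 2 lower. The ranges were 0 to 11 higher and 0 to 10 lower for pathway genes, 0 to 19 and 0 to 2 for markers, and 0 to 1148 and 0 to 749 for all genes. The median log2 fold change ranged from 1.76 to 2.68 for adipocyte-restricted members, a description only, and 0.22 to 0.42 for widely expressed ones. The ratio of summed adipocyte-restricted levels ranged from 2.77 to 3.91 (5.47 without Car3, Pck1, Plin4 and Aqp7, with all tumors kept). Of the values of single members in those fits, 214 kept their side of the threshold, 55 lost a call and 21 gained one. The cause was not tested. Fold changes of Adipoq and of Pck1 rest on 1 or 2 counts in single non-responders. No paired analysis was possible because the labels give no number that ties a responder to a non-responder.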
